A study of Mus musculus with 12 samples.

Results

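The comparison is between high functioning (HF) mice that had a laparotomy, a surgical opening of the abdominal wall, and HF control mice, in RNA of the soleus, a postural muscle of the calf. It holds 6 of the series' 12 libraries, 3 HF laparotomy and 3 HF control, chosen by their condition and treatment labels. Abundances are in TPM, transcript abundance corrected for length and scaled to a fixed library total, and the 10757 genes averaging 1 TPM or more across the 12 libraries were tested, of 30323 in the deposited table. All mice were C57BL/6N males of 24 months from an aging colony, housed singly with a running wheel for 8 weeks, and HF stands for their class on the accelerating rotarod. Muscle was taken 5 days after surgery, at the same age in the controls, and the labels name the other arm only as control, without saying whether it had anaesthesia or a sham operation. The other 6 libraries, low functioning (LF) with and without laparotomy, are used for the test of whether the difference depends on function. Libraries are numbered within a group in accession order. Nothing in the labels ties each library to a mouse of its own, so p-values here reflect library-to-library spread only, part or all of which could be technical.

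Abdominal surgery is a systemic insult: wound signals, cytokines and glucocorticoids reach muscles that were never cut. Glucocorticoids act through their nuclear receptor on genes such as Fkbp5, Tsc22d3 and the metallothioneins, and FoxO factors drive the ubiquitin ligases Fbxo32 (atrogin-1) and Trim63 (MuRF1) when muscle wastes. The soleus is rich in slow fibres, which use the myosin heavy chain Myh7 and rely on mitochondrial oxidation of fatty acids. A dissected soleus also carries tendon ends, nerve, vessels and resident immune cells, and in whole tissue fewer cells of a type and less RNA per cell cannot be told apart.

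The libraries carried the markers of soleus. In the 6 HF libraries Myh7 lay between 2180 and 3250 TPM, slow troponin I (Tnni1) between 1990 and 2950 and the type IIa myosin Myh2 between 1100 and 2080. Myh4, the myosin of the fast IIb fibres of neighbouring muscles, was 3.05 to 5.93 TPM in 5 of them and 90.8 in HF laparotomy 2. Of the cell type lists, the macrophage, endothelial, pericyte, fibroadipogenic and erythroid markers were above 0 in all HF libraries. The macrophage gene Tyrobp was barely so in HF laparotomy 3, at 8.23e-05 TPM. Elane of the neutrophil list was at 0 in all HF libraries.

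3 of the 6 HF libraries stood apart from the rest by high values, each in its own genes. HF control 2 had 34 genes more than 1 log2 unit above every other HF library, HF laparotomy 3 had 27, and the remaining 4 had 0 to 4. In HF control 2 these included the secreted peroxidase Gpx3 (248 TPM against 36.4 to 50.1 in the other 5), the acetylcholine receptor subunit Chrnd (14.2 against 2.37 to 3.35), the myogenic factor Myod1 (9.34 against 1.72 to 3.37) and the nucleotide reductase subunit Rrm2 (7.09 against 1.34 to 2.04). In HF laparotomy 3 the summed level of the 14 Schwann and nerve markers was 270 TPM against 88.4 to 117 in the other 5, and that of the 20 macrophage markers was 203 against 55.5 to 146. HF laparotomy 2 was set apart by Myh4, but not by the fast contractile markers together. Their sum was 46100 TPM there and 51100 TPM in HF control 3. HF control 2, HF laparotomy 2 and HF laparotomy 3 were each left out in turn. Where that turned a printed difference of at least 0.2 log2, or made it over 1.5 times smaller, the value stands beside the gene. The other 3 HF libraries are outside this rule, so a difference printed alone can still rest on them. Of these, HF laparotomy 1 had 10 genes more than 1 log2 unit below every other HF library, the most of the 6. HF laparotomy 2 had 8 such genes and the remaining 4 had 2 to 6.

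No gene passed the test. In limma's moderated test on log2(TPM + 1), with Benjamini-Hochberg adjustment over 10757 genes, 0 genes were higher and 0 lower after laparotomy at an adjusted p under 0.05 (0% of genes called in either direction), and the smallest adjusted p was 0.609. At an unadjusted p under 0.05 there were 28 higher genes (0.26%) and 637 lower (5.92%). This lean to lower values depended on the scale: the median of all tested genes was -0.12 log2 in the deposited TPM and 0.00 after median-of-ratios size factors, under which 240 were higher and 228 lower. The count and the lean also moved with single libraries. From 665 in all the count was 279 without HF control 2, 325 without HF laparotomy 2 and 1202 without HF control 3. Without HF laparotomy 1 it was 483, with 132 higher and 351 lower. The higher genes were then 27.3% of the count, against 4.21% with all libraries. It was 1115 and 1010 without LF laparotomy 1 or 3, which share the estimate of spread. The standard error of a difference had a median of 0.132 log2 over genes (0.104 to 0.199 between the lowest and highest decile). All log2 differences below are laparotomy minus control, centred on the median difference over all genes tested, with their standard error; the adjusted p-values test the values before that centring, and none of those of the genes named was below 0.609.

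**Figure D1:**
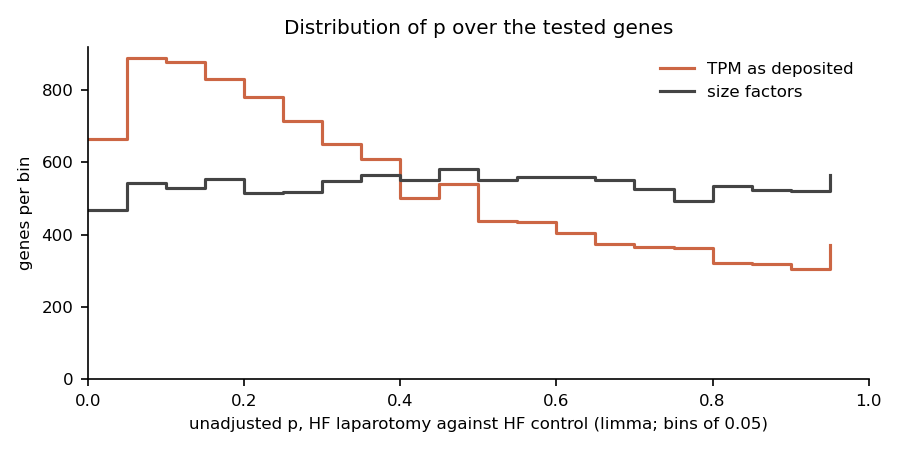
Number of tested genes (vertical axis) in each 0.05-wide bin of unadjusted p from limma (horizontal axis) for HF laparotomy against HF control, with TPM as deposited and after size factors. With TPM as deposited the bin nearest 0 held 665 genes and the next held 890; after size factors the bins were nearly level, 468 in the bin nearest 0 and 542 in the next.

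Because nothing passed, the genes below are described by their values in every library. Groups that do not overlap, with every laparotomy library above or below every control library, were counted in deposited TPM for 65 genes higher (0.604%) and 1783 lower (16.6%). After size factors the counts were 529 (4.92%) and 556 (5.17%). These shares are the background for each count of list members that follows.

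Genes of the tendon and cartilage list stood lower after laparotomy. Of its 9 tested members 5 did not overlap and lay lower, 0 lay higher, and after size factors the counts were again 5 and 0. The median difference was -0.61 log2, against 0 for all tested genes by construction, and it stayed between -0.76 and -0.46 when each library was left out. These 5 genes were picked out here with their values in view. Among them Chad reached the minimum mean of 1 TPM only through its HF control libraries. Upstream bases of the 3 for which the promoter table has an entry are shown next, together with those of Chrna1, a muscle gene described later. They are shown because basic helix-loop-helix factors, among them Scx of tendon and the MyoD family of muscle, bind E-box letters, CANNTG. The pattern is the same on both strands, while the middle bases (NN) of a site can differ between them. Capitals mark these letters in the 250 bases before the RefSeq start (GRCm38.p6), 5′ to 3′ on the gene's strand.
Chad: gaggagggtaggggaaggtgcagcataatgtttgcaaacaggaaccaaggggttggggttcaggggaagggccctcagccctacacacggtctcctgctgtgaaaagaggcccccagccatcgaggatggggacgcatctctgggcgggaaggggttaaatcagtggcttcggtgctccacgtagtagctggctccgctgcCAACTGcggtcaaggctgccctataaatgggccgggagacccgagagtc
Fmod: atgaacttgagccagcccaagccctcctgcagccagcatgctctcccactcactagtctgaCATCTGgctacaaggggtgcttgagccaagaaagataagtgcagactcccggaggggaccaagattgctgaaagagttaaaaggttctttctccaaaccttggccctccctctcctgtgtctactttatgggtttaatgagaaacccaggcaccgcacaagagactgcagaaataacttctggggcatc
Angptl7: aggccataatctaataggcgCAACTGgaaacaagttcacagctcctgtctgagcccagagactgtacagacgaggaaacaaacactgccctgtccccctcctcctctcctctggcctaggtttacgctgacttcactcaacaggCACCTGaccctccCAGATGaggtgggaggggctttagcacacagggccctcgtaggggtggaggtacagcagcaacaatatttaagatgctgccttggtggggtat
Chrna1: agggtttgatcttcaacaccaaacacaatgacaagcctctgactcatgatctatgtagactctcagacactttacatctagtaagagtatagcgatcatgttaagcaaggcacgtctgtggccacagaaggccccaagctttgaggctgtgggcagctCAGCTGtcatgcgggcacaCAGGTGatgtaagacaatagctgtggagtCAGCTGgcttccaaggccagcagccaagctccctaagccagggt
Chad, at chr11:94564797-94565046 on the plus strand, held 1 E-box, 49 bases before the start at its 5′ end. Fmod, at chr1:134037004-134037253 on the plus strand, held 1, at 189 bases before the start. Angptl7, at chr4:148500463-148500712 on the minus strand, held 3, at 230, 106 and 93 bases. Chrna1, at chr2:73580339-73580588 on the minus strand, held 3, at 92, 73 and 44 bases. Of 32851 RefSeq promoters, 66.2% hold at least 1 in a window of this length and 12.2% at least 3, so the letters are common and their presence is a description only. Scx and Comp are named without a sequence.

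Chad encodes chondroadherin, a leucine-rich matrix protein of cartilage and tendon. It was 2.02, 2.21 and 1.96 TPM in the HF control libraries and 0.32, 0.268 and 0.21 after laparotomy. Its mean over the 12 libraries was 1.02 TPM, which reached the minimum of 1 only through the HF controls. The groups were far apart, and the difference was -1.15 ± 0.29 log2 (95% interval -1.79 to -0.52). Fitted in the 6 HF libraries alone, with 4 residual degrees of freedom, Chad passed the threshold (adjusted p = 0.009 in limma); with the spread of all 4 groups it did not (0.655). In LF the 3 control libraries themselves ran from 0.168 to 2.86 TPM.

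Scx, scleraxis, is the transcription factor that marks tendon cells. It measured 6.17, 12.8 and 10.7 TPM in controls and 5.1, 5.55 and 5.35 after laparotomy (-0.61 ± 0.20 log2). Over the LF libraries, with or without laparotomy, Scx ran from 5.26 to 7.71 TPM. Comp, a pentameric matrix protein of cartilage and tendon, was 2.27, 3.57 and 2.99 TPM against 0.979, 1.02 and 1.48 (-0.74 ± 0.32). Angptl7, a secreted angiopoietin-like protein, was 4.38, 3.63 and 4 TPM against 1.26, 1.25 and 2.41 (-0.83 ± 0.28). In all 3 every laparotomy library lay below the lowest control, with Scx the tightest after laparotomy and Angptl7 spread more widely than in controls.

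Fmod, fibromodulin, binds collagen fibrils. It was 4.88, 5.85 and 4.37 TPM in controls and 2.06, 2.28 and 2.54 after laparotomy (-0.75 ± 0.35). The other 4 tested members overlapped: Thbs4 differed by -0.24 ± 0.34 (-0.05 without HF control 2), Cilp by -0.14 ± 0.42, Prg4 (lubricin) by 0.09 ± 0.30 and Fibin by 0.08 ± 0.21 log2. The summed level of all 17 markers of the list overlapped too, 52.3 to 82.9 TPM in HF controls and 35.2 to 53.1 after laparotomy, and how much tendon was dissected with each muscle is not recorded in the labels. In LF the list's median was -0.44 log2, with 1 control library (LF control 1) at a sum of 106 TPM and the other 5 between 31.2 and 47.7. 

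**Figure D2:**
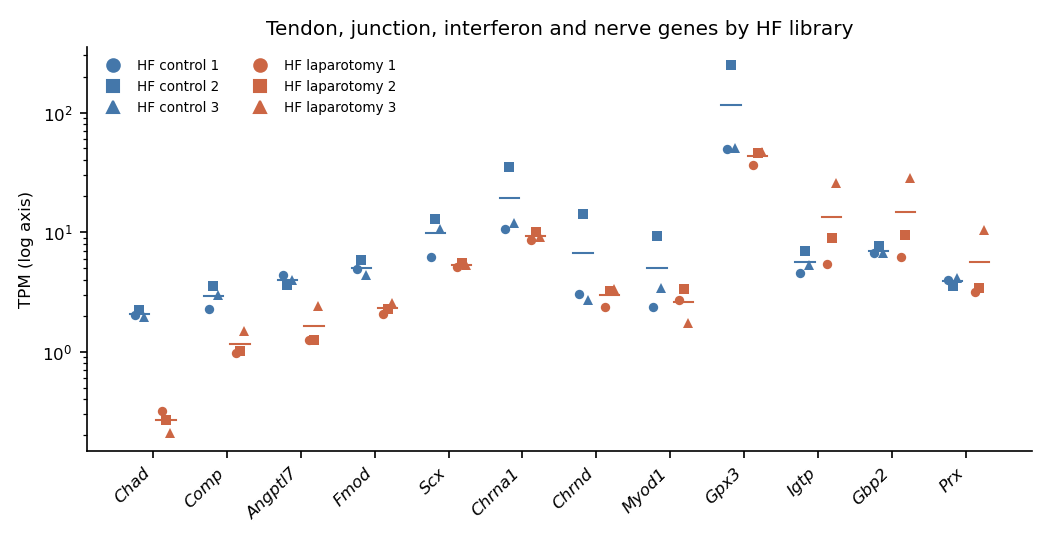
TPM (log axis) of 12 genes of tendon, the neuromuscular junction, muscle regulation, the interferon response and nerve in the 6 HF libraries, with a marker shape for each replicate number and a line at each group's mean. The 5 tendon genes separate the groups, while the high values of Chrna1, Chrnd, Myod1 and Gpx3 come from HF control 2 and those of Igtp, Gbp2 and Prx from HF laparotomy 3.

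The rule for single genes took the 5 of smallest p in each direction among those whose groups did not overlap, leaving out predicted genes. Lower after laparotomy were P3h4, Snurf, Id2, Fubp3 and Hbegf. P3h4 belongs to the complex that modifies lysines of collagen in the endoplasmic reticulum. It was 7.94, 8.2 and 5.25 TPM in controls against 2.82, 3.78 and 3.56 after laparotomy (-0.75 ± 0.17 log2, adjusted p = 0.609). Id2 encodes an inhibitor that pairs with helix-loop-helix factors and keeps them from DNA. It was 6.34, 5.75 and 4.86 TPM against 1.97, 3.31 and 3.29 (-0.68 ± 0.16, adjusted p = 0.619). The laparotomy mean was 0.475 of the control mean for P3h4 and 0.506 for Id2. Over the LF libraries, with or without laparotomy, P3h4 ran from 3.71 to 6.87 TPM and Id2 from 2.03 to 3.32.

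Snurf shares its transcript with Snrpn, a splicing protein gene of the imprinted region. Snurf was listed at 17, 26.1 and 20.2 TPM in controls and 8.15, 5.14 and 10.2 after laparotomy (-1.23 ± 0.27), while Snrpn went from 25.9, 27.3 and 26 to 21.4, 20.9 and 20.4 (-0.20 ± 0.09). The 2 genes overlap on 1 strand and their sequences match at 100%, so how their reads were divided is uncertain. Fubp3, a single-strand nucleic acid binding protein, was 5.39, 5.46 and 5.18 TPM against 3.1, 3.87 and 3.32 (-0.40 ± 0.12). Hbegf, a growth factor that binds the EGF receptor, was 2.11, 2.5 and 1.96 TPM against 1.21, 1.35 and 1.19 (-0.38 ± 0.11). In Fubp3 and Hbegf the gap between the groups was wider than the range within either.

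Higher after laparotomy were Fas, Mybpc2, Sema7a, Arl4d and Sap25. Fas, the death receptor of the TNF receptor family and a target of p53, was 5.27, 4.76 and 4.82 TPM in controls and 5.87, 8.85 and 9.41 after laparotomy (0.70 ± 0.14). Sema7a, a membrane-anchored semaphorin, was 5.98, 6.8 and 6.91 TPM against 7.96, 10.9 and 10 (0.60 ± 0.14). Arl4d, a small GTPase, was 3.55, 3.53 and 3.73 TPM against 4.21, 4.95 and 4.89 (0.42 ± 0.11). In these 3 genes HF laparotomy 1 was the laparotomy library nearest to the controls.

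Mybpc2, fast myosin-binding protein C, had the widest difference of the named genes (3.13 ± 0.83 log2), with a standard error second to that of Myh4. It was 1.99, 0.265 and 1.07 TPM in controls and 20, 57.4 and 2.37 after laparotomy, so HF laparotomy 3 lay just above the highest control. The highest value was in HF laparotomy 2, the library with Myh4 at 90.8 TPM. HF laparotomy 1, with Mybpc2 at 20 TPM, had Myh4 at 5.93 TPM. Without HF laparotomy 2 the difference was 2.20 and without HF laparotomy 3 it was 4.30. In the LF libraries Mybpc2 ran from 4.75 to 31.2 TPM. Sap25, of a histone deacetylase complex, was 0.999, 1.47 and 1 TPM against 1.82, 1.83 and 1.52 (0.46 ± 0.12). It reached the minimum mean of 1 TPM only through the HF laparotomy libraries. Its value is uncertain because it overlaps Gm20605 on the same strand with identical sequence.

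**Figure D3:**
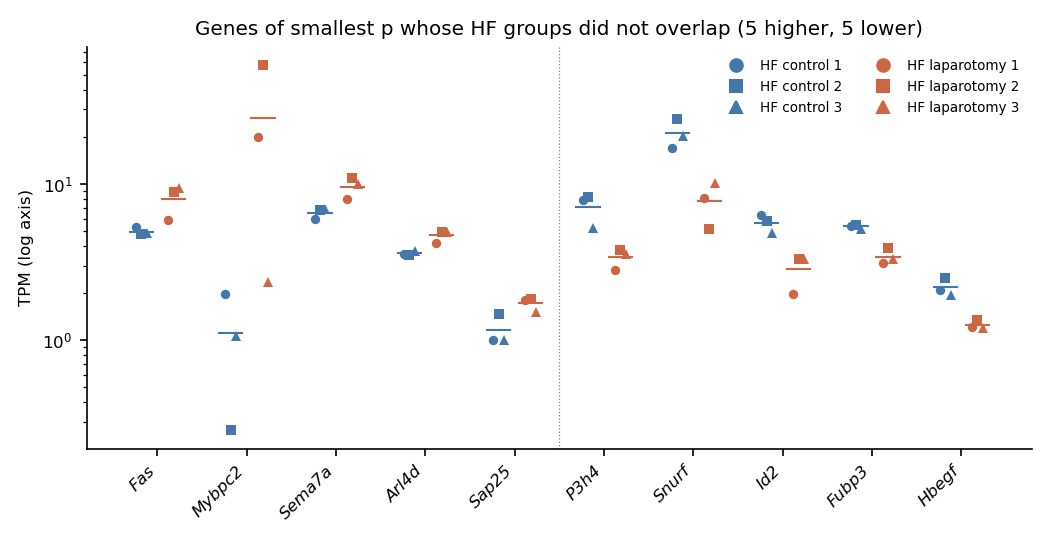
TPM (log axis) of the 5 higher and 5 lower genes of smallest p whose HF groups did not overlap, by library, with a marker shape for each replicate number and a line at each group's mean. Mybpc2 spans 2.37 to 57.4 TPM over the laparotomy libraries and has the widest groups of the 10.

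The 2 smallest p-values of all belonged to predicted genes that the rule leaves out, Gm17428 and Gm10217. Both have short transcripts, that of Gm10217 mostly repeated pairs of letters and that of Gm17428 almost all a and g. They are named after their values were seen, and their GENCODE M21 transcripts (GRCm38) are shown because the letters bear on how reads can be assigned. In Gm17428 the capital marks the 1 base of 93 that is neither a nor g. In Gm10217 capitals mark the 122 of 135 bases that lie in a pair of letters repeated at least 5 times in a row.
Gm17428: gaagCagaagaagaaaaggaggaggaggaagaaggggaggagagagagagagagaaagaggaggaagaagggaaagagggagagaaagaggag
Gm10217: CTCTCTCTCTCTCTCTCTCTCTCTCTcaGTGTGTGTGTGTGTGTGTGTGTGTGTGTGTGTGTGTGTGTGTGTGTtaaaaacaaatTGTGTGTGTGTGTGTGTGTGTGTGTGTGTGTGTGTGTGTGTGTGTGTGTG
Gm17428, a single exon at chr14:54976933-54977025 on the plus strand, lies within the bounds of Myh7, which is on the minus strand, and outside its exons. It was listed at 6.05, 3.07 and 6.07 TPM in controls and 20.9, 28.6 and 27.7 after laparotomy (2.29 ± 0.37 log2, adjusted p = 0.609). Gm10217, with 2 exons between chr8:9864251-9870315 on the plus strand, was listed at 4.33, 4.38 and 2.15 TPM in controls and at 0 in all 3 laparotomy libraries (adjusted p = 0.609). It was also listed at 0 in 2 of the 3 LF laparotomy libraries. Like Chad, Gm10217 reached the minimum mean of 1 TPM only through the HF control libraries. Whether these sequences shaped the values was not tested.

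No gene of the muscle atrophy program passed the test. Fbxo32 was 61, 79.4 and 54.3 TPM in controls and 51, 49.1 and 61.6 after laparotomy (-0.13 ± 0.16, 95% interval -0.47 to 0.21). Trim63 was 57.8, 66.2 and 69.4 TPM against 52.6, 63.5 and 68.9 (0.05 ± 0.20, interval -0.39 to 0.49). The groups overlapped in both. The 21 tested members of the atrophy and FoxO list had a median of -0.03 log2, and 10 of 21 lay above the median of all genes. Without overlap 1 was lower and 0 higher in deposited TPM, and 0 lower and 1 higher after size factors. Foxo1 differed by 0.00 ± 0.15, Pdk4, a kinase that FoxO and fasting induce, by 0.00 ± 0.30, and Fbxo30, the ubiquitin ligase MUSA1, by -0.23 ± 0.17 (-0.06 without HF control 2). The myostatin gene Mstn was under the minimum level and was not tested, like Socs3, Lcn2 and Cebpd.

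The other degradation routes were as level. The 31 proteasome genes had a median of 0.03 log2 with none of them free of overlap in deposited TPM and 3 higher after size factors. The 26 autophagy and lysosome genes had a median of 0.01, with 7 lower and 0 higher in deposited TPM but 2 lower and 3 higher after size factors. Bnip3l, a mitophagy receptor, was 68.8, 71.9 and 63.5 TPM against 53.7, 57.7 and 59.5 (-0.13 ± 0.10).

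Genes of the glucocorticoid response lay above the median of all genes in 14 of 19, with a list median of 0.26 log2 (0.03 in LF). In deposited TPM 1 was higher and 1 lower without overlap, and after size factors 5 were higher and 0 lower. Tsc22d3, the leucine zipper protein GILZ, was 31.8, 33.6 and 31.8 TPM in controls and 34.3, 41.3 and 39 after laparotomy (0.35 ± 0.11). Ddit4, an inhibitor of mTORC1, was 8.1, 4.79 and 6.89 TPM against 7.18, 9.54 and 9.88 (0.51 ± 0.18, and 0.28 without HF control 2). The groups of the former did not overlap and those of the latter did.

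The metallothionein genes Mt1 (0.45 ± 0.21) and Mt2 (0.55 ± 0.39) and the clock gene Per1 (0.26 ± 0.17) overlapped between groups. Without HF laparotomy 2 Mt2 was at 0.19 and Per1 at 0.17, and Per1 was at 0.15 without HF laparotomy 3. Fkbp5, the usual marker of receptor activity, was 10.3, 10.1 and 12.8 TPM against 7.73, 11.6 and 14.6 (0.12 ± 0.21). Sgk1, a kinase of the same list, lay on the other side (-0.48 ± 0.32). It ran from -0.87 without HF control 2 to -0.25 without HF control 1. The list's median was 0.14 without HF laparotomy 2 and 0.33 without HF control 3. Txnip, which binds thioredoxin and restrains glucose uptake, was named outside the rule: it was 164, 185 and 145 TPM against 191, 304 and 193 (0.57 ± 0.19, and 0.35 without HF laparotomy 2).

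Interferon and antigen presentation genes had the highest median of the lists with at least 5 tested members, 0.43 log2 (0.26 in LF), and 30 of 31 lay above the median of all genes. None was free of overlap in deposited TPM, and 6 were higher and 0 lower after size factors. Igtp, an interferon-induced GTPase, was 4.53, 6.99 and 5.26 TPM in controls and 5.4, 8.89 and 25.6 after laparotomy (0.99 ± 0.41). Gbp2, of the guanylate-binding proteins, was 6.67, 7.65 and 6.62 TPM against 6.18, 9.47 and 28.1 (0.83 ± 0.41). Rsad2 (viperin), which acts against viruses, was 3.83, 5.7 and 4.53 TPM against 4.57, 7.71 and 9.38 (0.62 ± 0.27).

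In each of the 3 genes the highest value was in HF laparotomy 3, and HF laparotomy 1 lay within the control range or, for Gbp2, just below it. Without HF laparotomy 3 Igtp was at 0.45 and Gbp2 at 0.28. The list's median was then 0.18 log2, and without HF laparotomy 1 it was 0.61. The same library carried the macrophage and nerve markers described above, and their part in this result was not tested. Igtp overlaps Irgm2 on the same strand, which makes its value uncertain.

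Schwann and nerve genes, those of peripheral myelin, lay above the median of all genes in 9 of 9 tested members, with a median of 0.40 log2. No member was free of overlap under either scale. Prx, periaxin, was 3.97, 3.52 and 4.15 TPM in controls and 3.12, 3.38 and 10.4 after laparotomy (0.40 ± 0.28). Without HF laparotomy 3 Prx was at -0.04 and the median of the list at -0.02. Macrophage genes stood high in the same library by their sum, and their median of 0.16 was -0.19 without it. C1qc, a complement chain, was 12.6 TPM there and 2.99 to 7.26 in the other 5. Its difference was 0.38 with that library and -0.09 without it. Tyrobp of the same list went the other way, at 8.23e-05 TPM there and 0.751 to 4.04 in the other 5.

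Most genes of acute inflammation overlapped between the groups. Of 32 acute phase and innate inflammation genes 19 were tested, with a median of 0.13 log2. Without overlap 1 was lower and 0 higher in deposited TPM, and 0 lower and 2 higher after size factors, so the direction depended on the scale. The complement gene C3 was 2.46, 2.39 and 2.18 TPM in controls and 2.11, 4.83 and 6.66 after laparotomy (0.75 ± 0.34). Nfkbia, the inhibitor of NF-kappa B, differed by 0.29 ± 0.13 (0.15 without HF control 2), Tnfrsf12a, the receptor of TWEAK, by 0.19 ± 0.20 and Hmox1, heme oxygenase 1, by -0.01 ± 0.18. Of 11 neutrophil genes only S100a8 and S100a9 reached the minimum level, and both overlapped.

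**Figure D4:**
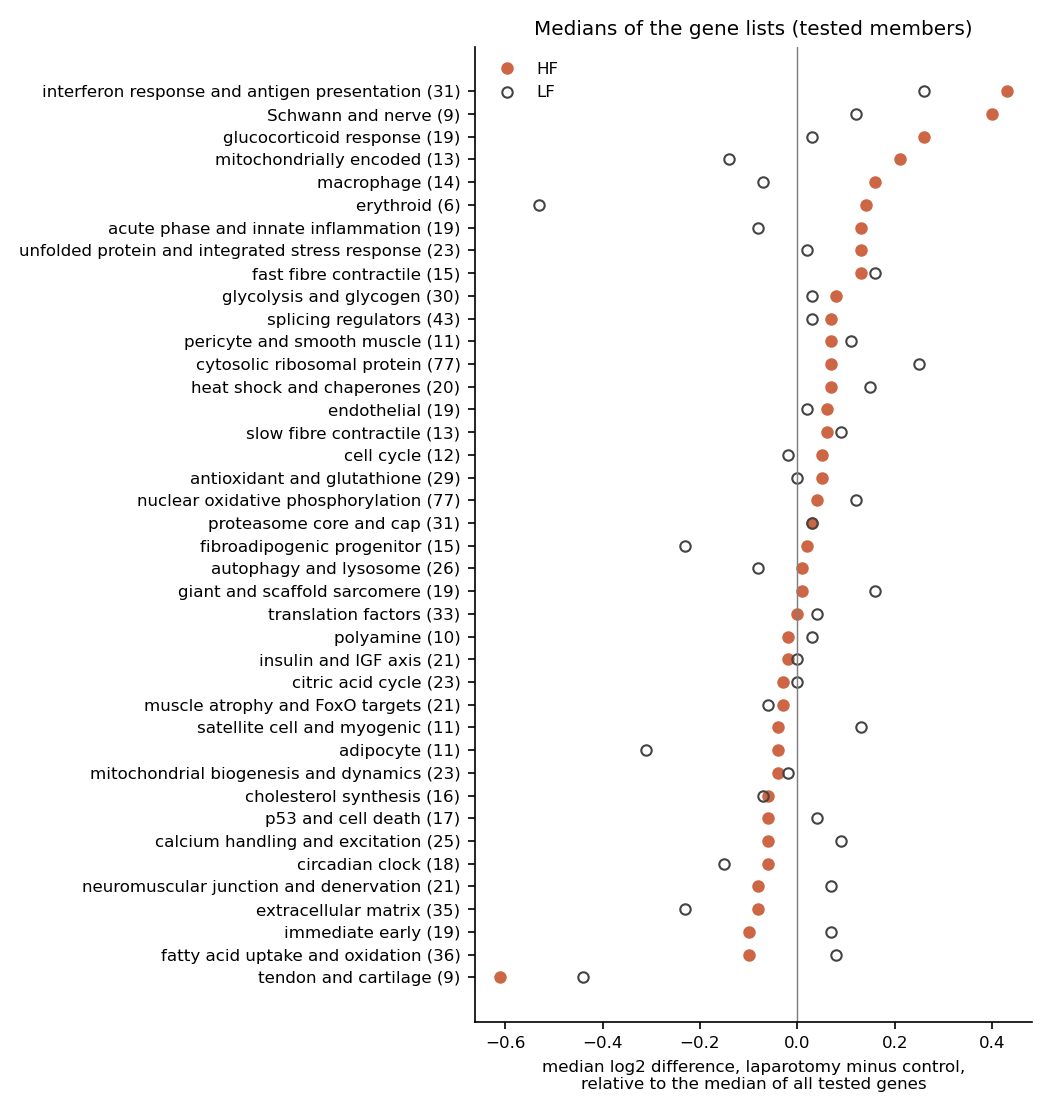
Median log2 difference, laparotomy minus control and relative to all tested genes (horizontal axis), of each gene list with at least 5 tested members (number in parentheses), for HF (filled) and LF (open). Most lists lie within 0.2 of 0 in HF; tendon and cartilage is at -0.61, and interferon, Schwann, glucocorticoid and mitochondrially encoded genes are at 0.43, 0.40, 0.26 and 0.21.

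Fatty acid uptake and oxidation had the most members on the lower side among the metabolic lists. In deposited TPM 14 of 36 (38.9%) were lower without overlap and 0 higher, beside 16.6% of all genes; after size factors it was 3 and 0. Acsl1, which activates long-chain fatty acids, was 98.3, 122 and 108 TPM in controls and 86.7, 84.1 and 86.3 after laparotomy (-0.23 ± 0.12). Eci2, an enoyl-CoA isomerase, was 67.3, 72.1 and 72.3 TPM against 51.9, 57.4 and 55 (-0.24 ± 0.12). Etfdh, which passes electrons from fatty acid oxidation to ubiquinone, was 107, 119 and 117 TPM against 89.6, 87.9 and 89.9 (-0.23 ± 0.14). The list's median was small, -0.10 log2 (0.08 in LF), and was -0.03 without HF control 3.

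In the citric acid cycle 7 of 23 (30.4%) were lower without overlap in deposited TPM, and after size factors 0 were lower and 1 higher. Its median was -0.03 log2. Dlst, a subunit of the oxoglutarate dehydrogenase complex, was 48.3, 72.3 and 63.5 TPM against 43.4, 42.2 and 43.4 (-0.36 ± 0.19), and Pdk1, a pyruvate dehydrogenase kinase, was 54.7, 54.2 and 40.8 TPM against 37.7, 34.5 and 39.5 (-0.28 ± 0.14). The laparotomy libraries were tightly grouped in both genes. Nuclear oxidative phosphorylation genes were level, with a median of 0.04 over 77 members, and so was Ppargc1a, the coactivator of mitochondrial biogenesis (-0.01 ± 0.18). Ucp3, a mitochondrial carrier of muscle, was 10.1, 22.3 and 9.29 TPM against 9.25, 8.52 and 12.1 (-0.23 ± 0.27), with its highest value again in HF control 2. Its difference was 0.09 without that library, and -0.14 when HF laparotomy 2 was left out.

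Over the 13 genes of the mitochondrial genome the median was 0.21 log2 in HF and -0.14 in LF, and 3 were higher without overlap (23.1%) and 0 lower in deposited TPM, 8 and 0 after size factors. mt-Co1, a catalytic subunit of cytochrome oxidase, was 55500, 52100 and 58400 TPM in controls and 62200, 59600 and 63800 after laparotomy (0.28 ± 0.09); its near copy Gm13340 averaged 16.8 TPM. mt-Co2 lay on the other side (-0.41 ± 0.30, and -0.24 without HF control 2 or -0.21 without HF laparotomy 3), but its sequence is identical to that of Gm28661 on chromosome 1, whose mean was 2.84e+04 TPM, so its value is uncertain. The 13 genes together held 34.2% ± 1.7 of TPM in HF controls and 35.6% ± 0.294 after laparotomy (SD, n = 3 each). That difference of 1.4 points was within the spread (exact permutation test, two-sided, p = 0.2; the smallest p that 3 against 3 allows is 0.1). With the near-identical nuclear copies on chromosome 1 added, the mitochondrially encoded share was 45.5, 42.5 and 43.9% in controls and 48.1, 46.6 and 47.5% after laparotomy. Those groups did not overlap, and the difference of 3.43 points gave the smallest p the test allows (exact permutation test, two-sided, p = 0.1). Lars2, the mitochondrial leucyl-tRNA synthetase, was 7.34, 9.02 and 9.81 TPM against 5.04, 5.93 and 5.48 (-0.46 ± 0.14), without overlap.

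Most fibre type markers overlapped; the exceptions in deposited TPM were Mybpc2, described above, and Myl3, described below. Myh7 was 3050, 3250 and 2370 TPM in controls and 2180, 2280 and 2820 after laparotomy (-0.13 ± 0.15), and as a share of Myh7, Myh2, Myh1 and Myh4 it was 57.7% ± 10.9 against 52.9% ± 6.03 (SD, n = 3 each; exact permutation test, two-sided, p = 0.6). Myh2 differed by 0.02 ± 0.17 and Myh1, the type IIx myosin, by 0.45 ± 0.34. For Myh1, leaving out HF control 2 gave 0.06 and leaving out HF laparotomy 2 gave 0.14. The 13 slow contractile genes had a median of 0.06 log2 and the 15 fast ones 0.13, which was 0.01 without HF laparotomy 2. Mrln, whose micropeptide myoregulin inhibits the calcium pump of the sarcoplasmic reticulum, was named outside the rule: it was 38, 50.7 and 45.2 TPM against 35.1, 25.9 and 18.4 (-0.65 ± 0.20, and -0.39 without HF laparotomy 3). Another pump inhibitor, sarcolipin (Sln), was 46.7, 278 and 43.8 TPM against 73.5, 114 and 119 (0.38 ± 0.55), and without HF control 2 its difference was 1.20.

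At the neuromuscular junction the median of 21 genes was -0.08 log2, with 2 lower without overlap in deposited TPM and 1 higher and 1 lower after size factors. Chrna1, the acetylcholine receptor alpha subunit whose upstream E-boxes are printed above, was 10.6, 35.3 and 11.9 TPM in controls and 8.66, 10.1 and 9.05 after laparotomy (-0.65 ± 0.31). The groups did not overlap, but HF control 2 carried most of the distance: without it the difference was -0.18. Its partner Chrnd, of the same library pattern, differed by -0.50 ± 0.38, and by 0.11 without that library. Colq, the collagen tail of acetylcholinesterase, was 10.4, 11.3 and 9.79 TPM against 8.26, 7.18 and 8.34 (-0.25 ± 0.16).

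In the p53 and cell death list Fas was the 1 member higher without overlap and 4 of 17 were lower. Ccng1, cyclin G1, was 179, 190 and 151 TPM against 132, 136 and 132 (-0.25 ± 0.11), and Bax, which permeabilises mitochondria, 13.5, 17.4 and 13.8 against 11.5, 12.3 and 11.9 (-0.18 ± 0.12). After size factors the count was 1 higher and 1 lower. Cdkn1a (p21) was 6.34, 45.5 and 10.3 TPM against 7.02, 17.8 and 15.3. Its difference was -0.10 ± 0.52 and turned to 0.64 without HF control 2.

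Among growth genes Igf2 was 9.54, 10.3 and 11.1 TPM in controls and 12.8, 12.5 and 13 after laparotomy (0.41 ± 0.11), without overlap. Igf1 was 1.47, 1.44 and 1.23 TPM against 0.792, 1.07 and 1.56 (-0.05 ± 0.14). Amd1, the decarboxylase that feeds polyamine synthesis, differed by 0.19 ± 0.17 and is uncertain because Amd2 is a near-identical copy. Of the translation factors, 8 of 33 (24.2%) were lower without overlap in deposited TPM and 4 after size factors, among them Eef2k, the kinase that brakes elongation factor 2 (16.3, 23.1 and 17.9 TPM against 13.7, 13.6 and 14.9, -0.28 ± 0.13). Cytosolic ribosomal protein genes were lower in 11 of 77 (14.3%) in deposited TPM and higher in 9 with 0 lower after size factors, so their direction depended on the scale. Their centred median was 0.07 log2 in HF and 0.25 in LF. Of the circadian clock genes, 3 of 18 (16.7%, beside 16.6% of all genes) lay lower without overlap in deposited TPM and 1 after size factors. Clock itself was lower in deposited TPM (2.52, 2.85 and 2.62 TPM against 1.53, 2.06 and 1.78, -0.28 ± 0.13). Nr1d1 (REV-ERB alpha) differed by -0.12 ± 0.19.

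The remaining lists are given by members of smallest p. In the sarcomere, Ankrd23, a titin-binding stress protein, was 1330, 1260 and 1360 TPM in controls and 1030, 1130 and 1060 after laparotomy (-0.18 ± 0.13), without overlap, while titin itself (Ttn, -0.18 ± 0.13) overlapped. Their list of 19 giant and scaffold proteins had a median of 0.01 log2. Of the slow list Myl3, the slow myosin light chain, was lower without overlap (6940, 7430 and 7830 TPM against 6780, 6100 and 6350, -0.09 ± 0.13) and Tnni1 overlapped (-0.15 ± 0.16). Casq1, the calcium store protein of the fast list, differed by -0.02 ± 0.10.

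Calcium handling and excitation genes had a median of -0.06 over 25 members. Srl, sarcalumenin, was 422, 422 and 370 TPM against 321, 331 and 359 (-0.14 ± 0.11). Clcn1, the muscle chloride channel, was 26.6, 34.1 and 29.5 TPM against 26.4, 23.4 and 23.7 (-0.16 ± 0.13). Both were free of overlap, as were 6 members in all on the lower side in deposited TPM (24%), and 1 higher and 2 lower after size factors.

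Stress response genes were close to level. The 20 heat shock genes had a median of 0.07 log2, with Hsph1 at -0.26 ± 0.18 (-0.04 without HF laparotomy 3) and the mitochondrial chaperonin Hspd1 at -0.08 ± 0.13. The 23 genes of the unfolded protein response had a median of 0.13, with Xbp1, its spliced transcription factor, at 0.32 ± 0.13 and Atf5 at -0.04 ± 0.11. Of the 29 antioxidant genes (median 0.05) Txnrd2, mitochondrial thioredoxin reductase, was 4.04, 4.14 and 3.91 TPM in controls and 4.58, 5.15 and 4.53 after laparotomy (0.31 ± 0.10), without overlap. Gpx3 of the same list was 49.8, 248 and 50.1 TPM against 36.4, 45.8 and 46.6 (-0.86 ± 0.47), and -0.15 without HF control 2.

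Glycolysis and glycogen genes had a median of 0.08 over 30 members. Pfkfb3, which makes the activator of phosphofructokinase, was 3.62, 5.76 and 4.82 TPM against 5.16, 6.29 and 8.05 (0.51 ± 0.17), with overlap. Ldha, lactate dehydrogenase, was 285, 319 and 358 TPM against 265, 281 and 270 (-0.11 ± 0.11), without overlap. Cholesterol synthesis had a median of -0.06 over 16 members, and its desaturase Sc5d was 4.75, 5.28 and 4.35 TPM against 3.09, 3.62 and 3.94 (-0.23 ± 0.11). In the mitochondrial biogenesis list, with a median of -0.04 over 23 members, Opa1, which fuses inner membranes, differed by -0.27 ± 0.18 and the deacetylase Sirt3 by -0.19 ± 0.12. Of nuclear oxidative phosphorylation Atp5g2 was at -0.14 ± 0.14 and Sdhd at -0.04 ± 0.09.

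Protein turnover gave small values as well. Among ribosomal proteins Rps10 (-0.14 ± 0.12) and Rpl27 (-0.16 ± 0.13) had the smallest p. Eif4ebp1, the inhibitor of cap-dependent translation, was 7.5, 9.77 and 7.77 TPM against 5.76, 6.71 and 6.46 (-0.23 ± 0.11), without overlap. The proteasome subunits Psma5 (-0.05 ± 0.11) and Psmd13 (-0.04 ± 0.12), the autophagy enzyme Atg7 (-0.17 ± 0.13) and the polyamine genes Azin1 (-0.14 ± 0.14) and Oaz1 (-0.04 ± 0.09) all had small differences. Igfbp5, which binds insulin-like growth factors, was 34.7, 41.6 and 27.9 TPM against 29.5, 21.9 and 29 (-0.24 ± 0.14), a difference of -0.15 without HF control 2, or -0.11 when HF laparotomy 2 was left out.

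Nuclear regulators were mixed. Splicing regulators had a median of 0.07 over 43 members, with 1 higher without overlap in deposited TPM and 10 after size factors and none lower on either scale. Tra2a, a splicing activator, was 8.2, 3.3 and 3.21 TPM in controls and 9.27, 7.65 and 5.35 after laparotomy (0.71 ± 0.27), so HF control 1 lay inside the laparotomy range. Celf1 differed by -0.10 ± 0.14. Immediate early genes had a median of -0.10 over 19 members, with Jun at -0.21 ± 0.18 and Fosl2 at -0.15 ± 0.13. Bhlhe41, a clock repressor, was 6.68, 7.9 and 5.04 TPM against 4.94, 4.02 and 4.34 (-0.34 ± 0.18). Of the cell cycle genes, Cdkn1c was at -0.08 ± 0.15 and Rrm2 at -0.56 ± 0.31, or -0.08 without HF control 2.

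The lists of several other cell types had medians near 0. Endothelial genes had a median of 0.06 over 19 members. Ramp2, the partner of the adrenomedullin receptor, was 27, 27.2 and 28 TPM in controls and 29.4, 32.8 and 33.5 after laparotomy (0.33 ± 0.10), and Cldn5, a tight junction protein, was 16.6, 17.1 and 18.3 against 13.7, 14.1 and 13.1 (-0.20 ± 0.18). Each was free of overlap in deposited TPM, in opposite directions; Ramp2 overlaps Vps25 on its own strand. Pericyte genes had a median of 0.07, with Cspg4 (NG2) at -0.09 ± 0.12 and Abcc9 at 0.03 ± 0.12.

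Fibroadipogenic genes had a median of 0.02 over 15 members, with Ly6a (Sca-1) at 87.5, 155 and 162 TPM after laparotomy against 91.5, 104 and 97.6 (0.53 ± 0.22) and Smoc2 at -0.21 ± 0.17 (-0.13 without HF control 2). Extracellular matrix genes had a median of -0.08 over 35 members. Thbs1, thrombospondin 1, was 1.85, 2.1 and 1.46 TPM against 0.57, 1.04 and 1.2 (-0.42 ± 0.23), without overlap, and Nid2, a basement membrane protein, was at -0.11 ± 0.11. Adipocyte genes had a median of -0.04 over 11 members that ran from -0.43 without HF laparotomy 3 to 0.47 without HF laparotomy 1, and Thrsp (0.42 ± 0.19) and Cidec (-0.34 ± 0.36) pointed in opposite ways.

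Satellite cell and myogenic genes had a median of -0.04 over 11 members. Myod1 was 2.36, 9.34 and 3.37 TPM against 2.7, 3.34 and 1.72 (-0.48 ± 0.33, but -0.05 without HF control 2 and -0.25 without HF laparotomy 3), and Chrdl2, a BMP antagonist, was at 0.35 ± 0.14. Erythroid genes had a median of 0.14 over 6 members, with the heme enzyme Alas2 at 0.31 ± 0.41 (-0.03 without HF control 2, or -0.06 when HF laparotomy 3 was left out). The immunoglobulin genes Ighm (0.33 ± 0.34) and Igkc (0.09 ± 0.50), the macrophage genes F13a1 (0.37 ± 0.27) and Tyrobp (-0.87 ± 0.46), and Cnp (0.37 ± 0.18) and L1cam (0.58 ± 0.26) of nerve overlapped between groups. Without HF laparotomy 3 Ighm was at -0.09, F13a1 at 0.13, Tyrobp at -0.48 and Cnp at 0.14, and without HF control 2 L1cam was at 0.30. Of the inflammation list Rela, a subunit of NF-kappa B, was lower without overlap (9.19, 9.13 and 9.13 TPM against 6.66, 7.94 and 8.78, -0.09 ± 0.13).

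Whether laparotomy acted differently in HF and in LF was tested as the difference of the 2 effects. No gene passed (0%), the smallest adjusted p was 0.685, and 331 genes had an unadjusted p under 0.05. LF itself had 0 genes called (0%; smallest adjusted p = 0.914), with 273 genes higher (2.54%) and 422 lower (3.92%) without overlap. The 5 genes of smallest p had opposite signs in the 2 classes, which choosing by the difference of effects favours. Arhgap29, a GTPase-activating protein, was 3.17, 2.21 and 2.76 TPM in HF controls and 1.74, 1.71 and 2.03 after laparotomy. In LF it was 1.39, 1.12 and 0.989 TPM in controls and 2.13, 2.14 and 2.06 after laparotomy. The groups did not overlap in either class, and the HF effect was 0.82 log2 below the LF effect (-0.82, adjusted p = 0.685).

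Nrarp, a negative regulator of Notch signalling, was 3.26, 3.23 and 3.33 TPM in HF controls and 2.3, 2.39 and 2.31 after laparotomy; in LF it was 1.85, 1.61 and 1.87 against 2.62, 2.6 and 1.9. Foxs1, a forkhead factor, was 2.01, 1.39 and 1.52 TPM against 0.978, 1.13 and 1.11 in HF, and 0.906, 0.941 and 0.937 against 1.74, 1.16 and 1.59 in LF. In both genes the groups did not overlap in either class. P3h4, lower in HF, differed by 0.33 ± 0.17 in LF. Gm12397, a predicted gene whose sequence lies at 100% identity in Kdm2b, stood higher in HF (0.66 ± 0.13) and lower in LF (-0.39 ± 0.13).

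Of the genes above, Fas was 0.70 ± 0.14 in HF and -0.22 ± 0.14 in LF, Lars2 -0.46 ± 0.14 and 0.21 ± 0.14, and Tnfrsf12a 0.19 ± 0.20 and 1.10 ± 0.20. The adjusted p of each difference of effects was 1, so no gene can be called particular to HF. Tendon genes lay lower in both classes by their medians (-0.61 in HF and -0.44 in LF). In LF, however, LF control 1 stood apart, with a list sum of 106 TPM against 31.2 to 47.7 in the other LF libraries. Scx differed by only -0.04 ± 0.20 in LF. How far the LF median rests on LF control 1 was not tested.

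**Figure D5:**
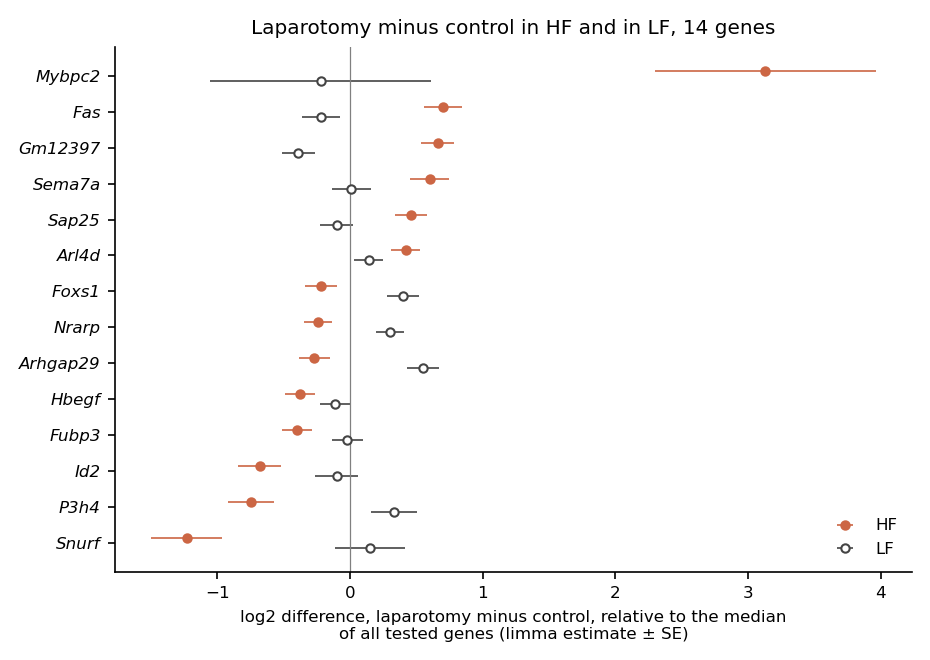
Log2 difference, laparotomy minus control, centred on the median over tested genes (limma estimate with its standard error as bars) in HF (filled) and LF (open) for the 10 leading HF genes and the 5 of smallest p for the difference between classes, 14 genes in all since P3h4 is in both. Arhgap29, Foxs1, Nrarp and P3h4 lie below 0 in HF and above 0 in LF, and Gm12397 the other way round.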

How the data were processed

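Soleus RNA was measured in 12 libraries, 3 in each of 4 groups. Per the labels' protocols, it was isolated by QIAzol and columns, and a polyA pull-down preceded a stranded library kit. The authors deposited gene-level TPM, and the submitters' processing notes name kallisto, DESeq2 and the GRCm38 build, with no version or role. TPM hold no depth, so no counting interval was computed. Over the deposited table the libraries summed to between 956473 and 962830 TPM, so their totals were close but not equal. For strand, the setting was not given in the sources used here. Of the table's identifiers 29936 matched a GENCODE M21 symbol and 387 did not.

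Values were taken as log2(TPM + 1), which understates changes of low genes. All 12 libraries were fitted in limma 3.58.1 (R 4.3.3), with a prior variance that follows abundance, a mean for each group and 8 residual degrees of freedom. Tests were two-sided, with Benjamini-Hochberg adjustment over 10757 genes at 0.05. Shares were compared by exact permutation. Copies were searched with blastn 2.17.0 at 95% identity and 80% cover. Promoter letters come from RefSeq. The fit was also run on simulated data with independent noise for each gene and no shifts of whole libraries. That run cannot show how the fit handles such shifts, and its outcome is not given here.

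The members, gene lists and rules were chosen with earlier results of these data known. With no gene past the threshold, the rule for named genes took the 5 higher and 5 lower of smallest p whose groups did not overlap, without predicted genes. It also took the 2 of smallest p in each list, 28 genes chosen for surgery and wasting, and the 5 of smallest p for the difference between classes. Named outside it, after their values were seen, were Angptl7, Bax, C1qc, Chrnd, Cilp, Comp, Etfdh, Fibin, Fmod, Gbp2, Gm10217, Gm17428, Mrln, Prg4, Prx, Sgk1, Snrpn, Thbs4, Txnip and the genes under other observations. Some genes that the rule took are not reported here.

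As alternatives, the pseudocount was 0.5 or 0.1, the filter was dropped or raised to 5 TPM, and the threshold was 0.1. There were also 3 other scalings, a robust prior, array weights, a covariate for fast muscle, a fit of the 6 HF libraries, and each library left out. Chosen after seeing the data were a fit without the 3 libraries whose Myh4 exceeded 30 TPM and removal of a length and GC trend.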

Additional observations from a re-analysis of the deposited data

How the results depend on the processing

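The count of genes past the threshold in HF was 0 under every setting but 4: 1 with no filter on low values (Rpl13a-ps1, mean 0.015 TPM), 3 with array weights (Gm10217, Gm14305 and Gm17428), 3 in the 6 HF libraries alone (Chad, Gm10217 and Gm17428) and 1 without HF laparotomy 1 (Map3k6), so 0 to 1 when each library was left out. The difference between classes gave 2 genes with no filter, 55 with array weights and 0 to 1 with each library left out (1 without LF control 3). LF gave 5, 734 and 0 to 1 (1 without LF control 3 or LF laparotomy 3), and 1 without the 3 libraries of high Myh4. The estimate of the array weights stopped before it converged, and the cause of the other changes was not tested. No paired analysis was possible because the replicate numbers were given in accession order and pair nothing. The mitochondrially encoded share differed by 0.428 to 2.01 points with each HF library left out, and the slow myosin share by -11 to -1.22 points.

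Of 142 named genes, 109 kept their direction under every alternative. The others turned sign as follows, in log2. Pseudocounts gave Foxo1 -0.01 at 0.5, and -0.02 at 0.1 with Casq1 at 0.00. With no filter Abcc9 was -0.06, Trim63 -0.03, Myh2 -0.06, Fibin -0.00, and Foxo1 and Pdk4 -0.08. Size factors gave Casq1 0.01 and Foxo1 -0.02, quantile normalization Myh2 -0.06 and Pdk4 -0.00, and rescaled TPM Foxo1 -0.01. Array weights gave Cilp 0.03, Prg4 -0.11, Casq1 0.01, Sdhd 0.03, Igkc -0.20, Ppargc1a 0.00, Cdkn1a 0.64, Hmox1 0.07 and Pdk4 -0.09. The fast muscle covariate gave S100a8 -0.02, Trim63 -0.04, Ppargc1a 0.10, Myh2 -0.05, Myh4 -0.08, Tnfrsf12a -0.03 and Pdk4 -0.10. Without the libraries of high Myh4, S100a8 was -0.13, Abcc9 -0.01, Ppargc1a 0.03, Tnfrsf12a -0.07 and Foxo1 -0.04. Removing the length and GC trend gave Ppargc1a 0.02 and Pdk4 -0.01.

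With each library left out the differences ran as follows: Foxo1 -0.08 to 0.12, Casq1 -0.09 to 0.09, Abcc9 -0.01 to 0.08, Trim63 -0.02 to 0.15, Myh2 -0.21 to 0.28, Pdk4 -0.26 to 0.28, Fibin -0.08 to 0.28, Sdhd -0.12 to 0.06, Igkc -0.29 to 0.43, Ppargc1a -0.09 to 0.06, Cdkn1a -0.64 to 0.64, Hmox1 -0.11 to 0.14, Cilp -0.33 to 0.16, Prg4 -0.18 to 0.24, S100a8 -0.23 to 0.80, Myh4 0.23 to 2.52, Tnfrsf12a -0.07 to 0.38, Sln -0.04 to 1.20, Psmd13 -0.08 to 0.01, Alas2 -0.06 to 0.60, Nr1d1 -0.31 to 0.02, Ucp3 -0.41 to 0.09, Chrnd -0.82 to 0.11, Atf5 -0.13 to 0.06, Ldha -0.19 to 0.01, Cidec -0.69 to 0.10, Igf1 -0.15 to 0.04, Psma5 -0.10 to 0.02, Ighm -0.09 to 0.56, Oaz1 -0.09 to 0.02, Fkbp5 -0.03 to 0.32, Prx -0.04 to 0.62 and C1qc -0.09 to 0.66.

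With 3 libraries a group and a median standard error of 0.132 log2, small changes could not be detected, and without counts the depth behind low genes such as Chad is unknown.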

Other observations

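Genes that passed only under another setting had these values. Map3k6, a kinase of the stress-activated MAP kinase pathway, was 1.59, 1.81 and 1.74 TPM in HF controls and 1.41, 5.69 and 5.2 after laparotomy. It passed only without HF laparotomy 1, the library at the control level (1.34 log2, adjusted p = 0.0173 in limma). In LF it was 0.846 to 1.59 TPM in all 6 libraries. Gm14305, a predicted gene, was 9.89, 7.83 and 7.31 TPM in HF controls and 4.91, 4.96 and 5.95 after laparotomy. It passed with array weights (-0.59 log2, adjusted p = 0.0398 in limma), and 6 predicted genes match its sequence at 95% or more, so its value is uncertain.

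Further down the order of p, among genes whose HF groups did not overlap, 5 are given here that were chosen after their values were seen. Baz2b, a bromodomain chromatin protein, was 14.6, 11.9 and 11.3 TPM in HF controls and 7.76, 8.68 and 9.36 after laparotomy (-0.38 ± 0.14 log2). Masp1, a protease of the lectin pathway of complement, was 2.13, 3.53 and 3.04 TPM against 1.6, 1.65 and 1.71 (-0.42 ± 0.14), and in LF its groups did not overlap either (-0.31 ± 0.14). Rgma, a repulsive guidance molecule and BMP co-receptor, was 5.97, 7.08 and 6.53 TPM against 4.36, 4.57 and 4.69 (-0.32 ± 0.12). On the higher side Pold1, the catalytic subunit of DNA polymerase delta, was 4.08, 3.9 and 3.75 TPM against 5.45, 4.47 and 4.86 (0.39 ± 0.10). Bcl3, a nuclear partner of NF-kappa B, was 1.28, 1.14 and 0.704 TPM against 1.33, 2.85 and 1.33 (0.56 ± 0.19, and 0.32 without HF laparotomy 2). Bcl3 reached the minimum mean of 1 TPM only through the HF laparotomy libraries. None of these passed the test in HF (adjusted p = 0.655 each, limma).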
